A study of Ulva lactuca with 7 samples.

Results

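The genes described here were assembled from thalli of the green seaweed Ulva lactuca, and their transcripts were scarcer in every dried library than in the submerged control and not regained within 1 h of return to seawater. They number 152 of 90206 assembled genes. Each gene was represented by its transcript with the highest summed read count, and 10724 genes with a GC content of at least 35% and at least 50 reads in the control were eligible. Levels are read counts scaled to a common library total (CPM). The members were chosen by their counts in all 7 libraries. A member had a CPM of 0.5 times the control or less in all 6 other libraries and, in each drying period, a CPM after resubmergence of at most 1.5 times that of the dried thalli. The low levels below therefore describe the choice and are given with no test.

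Thalli were collected, acclimatised in the laboratory and sequenced with 1 library per condition. The conditions were thalli resubmerged for 1 h in autoclaved seawater after 24, 36 or 72 h of drying, thalli dried for 24, 36 or 72 h at 20% moisture and not resubmerged, and control thalli that stayed submerged throughout. The control library is placed by its treatment label, although its title begins with 24 as do those of the 24 h libraries, and every ratio to the control rests on it. All are bulk RNA of whole thalli of the same species, so fewer cells of a kind and less RNA per cell cannot be told apart. No condition had a replicate, and intervals of ratios below cover counting error only. Library totals ran from 78585833 to 89178193 counts after resubmergence and from 63782317 to 97270080 in dried thalli, against 64315136 in the control. The assembled genes carry identifiers with no gene names, so neither the tissue label nor the function of any member could be checked against known genes, and whether each gene belongs to Ulva or to another organism on the thalli was not tested.

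Ulva forms blades a pair of cell layers thick in the intertidal zone, where low tide exposes them to air. As a thallus dries, photosynthesis and growth stop, and cells of tolerant algae rely on protective proteins, antioxidants and membrane repair until water returns. Transcript levels in drying tissue depend on both synthesis and decay. On rewetting, photosynthesis commonly recovers early, while transcripts for growth can take longer to be made again.

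Of the eligible genes, 1592 (14.8%) stood at 0.5 times the control or less in all 3 dried libraries, and 604 (5.63%) did so in the 3 resubmerged libraries as well. Singly, ratios of 0.5 or less were held by 31.4%, 22.8% and 18.1% of the eligible genes in the libraries resubmerged after 24, 36 and 72 h and by 31.3%, 30.3% and 26.7% in those dried for these periods. The further limit on resubmergence left the 152 members, 1.42% of the eligible genes. The other 452 exceeded 1.5 times the dried level in at least 1 period, 128 of them at 24 h, 349 at 36 h and 239 at 72 h. Ratios of 2 or more in all 6 libraries were found for 205 eligible genes (1.91%). All 6 comparisons share the same control library.

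The members together held 832, 1043 and 945 CPM in thalli resubmerged after 24, 36 and 72 h and 982, 1233 and 1141 CPM in thalli dried for these periods, against 3547 CPM in the control. Their summed level was thus between 0.235 and 0.348 of the control in every other library, and lower after resubmergence than before it in each period. The eligible genes as a whole held 280198 to 297191 CPM after resubmergence and 286716 to 314286 CPM when dried, against 309802 CPM in the control. Without the 2 most abundant members, which held 38.8% of the control sum, the other 150 summed to 427, 649 and 516 CPM after resubmergence and 613, 627 and 503 CPM when dried, against 2170 CPM in the control. The sum after resubmergence was then 0.697, 1.03 and 1.03 times the dried one at 24, 36 and 72 h, and with trimmed mean scaling 0.624, 0.921 and 0.963 times, so its side of 1 at 36 and 72 h depends on the scaling.

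Gene by gene, the median ratio to the control was 0.165, 0.270 and 0.254 in the libraries resubmerged after 24, 36 and 72 h and 0.296, 0.273 and 0.264 in the dried ones. Over all eligible genes the medians were 0.776, 0.850 and 0.959 after resubmergence and 0.744, 0.760 and 0.846 when dried. On the log2 scale the eligible medians were -0.37, -0.23 and -0.06 after resubmergence and -0.43, -0.40 and -0.24 when dried, and trimmed mean scaling moved them to -0.13, -0.16 and -0.20 after resubmergence and -0.03, -0.16 and -0.29 when dried. The members' medians, -2.59, -1.89 and -1.98 after resubmergence and -1.76, -1.87 and -1.91 when dried, lay at least 1 log2 unit below them in every library under either scaling.

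A ratio of 0.25 or less was held by 116 members in the library resubmerged after 24 h, where the eligible background was 13.5%. In the libraries resubmerged after 36 and 72 h it was held by 66 and 75 members, with backgrounds of 6.24% and 6.55%. In thalli dried for 24, 36 and 72 h it was held by 63, 64 and 73 members, with backgrounds of 14.4%, 13.0% and 10.9%. The library resubmerged after 24 h was thus the one where the members stood lowest. It held the lowest value of 68 of the 141 members without ties, 48.2%, against 19.5% of the eligible genes. The rule's limit on resubmergence, which the eligible genes did not have, favours resubmerged libraries as the lowest. Nothing is therefore read from the gap between these shares. The library resubmerged after 24 h also had the lowest median ratio over all eligible genes of 45 to 50% GC, 0.445, and of 50 to 55% GC, 0.634. These bands of GC content held 31 and 58 of the members. In each other band a different library was the lowest. The part of GC content in the members' low position there was not tested.

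**Figure D1:**
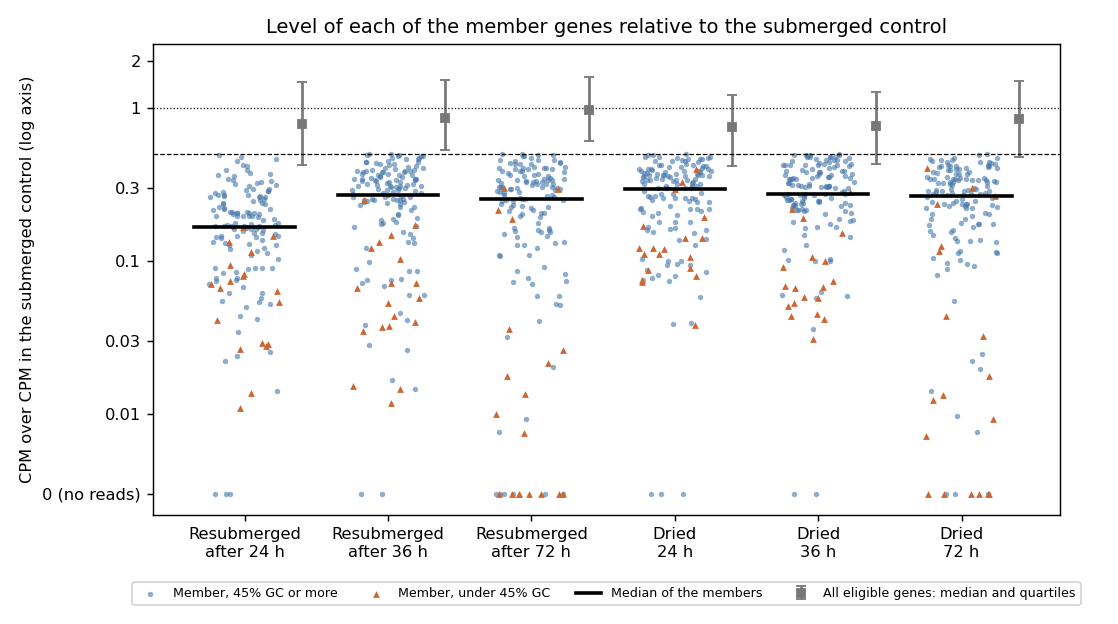
Each point is 1 member gene, placed by its CPM in a library over its CPM in the submerged control (log axis, with genes without reads at the bottom), bars are medians of the members, and grey squares with bars are the median and quartiles of all eligible genes. The members' median was lowest, at 0.165, in thalli resubmerged after 24 h, and triangles mark members under 45% GC, several of which had no reads in the 72 h libraries.

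Counting error differed between the members. The exact 95% interval of the ratio lay wholly under 1 in all 6 libraries for all 152 members. The rule's limits of 0.5 and of 50 control reads fixed that outcome in advance. The interval lay wholly under 0.5 in all 6 libraries for 94 of the 152. In the control the members had 50 to 53397 counts with a median of 363.5. Between 21 and 29 members had under 10 counts in each resubmerged library and between 12 and 24 in each dried library. A dried count of 0 admits a member only if the resubmerged count is also 0, which was so for 3 members at 24 h, 2 at 36 h and 9 at 72 h.

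The most abundant members were followed first. Transcript levels per length are given as the deposited FPKM values. The gene c27752_g1 (562 nt, 46.98% GC) had 1148, 544 and 577 FPKM after resubmergence from 24, 36 and 72 h and 1001, 1042 and 1213 FPKM in dried thalli, against 2616 FPKM in the control, the highest FPKM of all members. Its level changed little over the drying periods, and the library resubmerged after 24 h stayed near the dried level while the other 2 were lower. The long transcript of c34650_g1 (5319 nt, 48.04% GC) had 15503, 23482 and 24970 counts after resubmergence and 14508, 35011 and 24815 when dried, against 53397 in the control. Both 24 h libraries were the lowest for this gene, with the control 4.78-fold (95% counting interval 4.69 to 4.86) and 5.57-fold (5.47 to 5.67) above the resubmerged and the dried thalli.

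Among the 10 most abundant members c32330_g1 (4453 nt, 63.13% GC) stayed furthest below the control, with a largest ratio of 0.141. It had 1485, 2233 and 1123 counts after resubmergence and 1454, 1703 and 957 when dried, against 11972 in the control. The control was 11.2, 7.09 and 13.03-fold above the resubmerged thalli and 12.45, 9.75 and 12.4-fold above the dried ones. By contrast c32624_g1 (913 nt, 48.74% GC) differed widely between periods. It had 344, 3197 and 1125 counts after resubmergence and 526, 3515 and 840 when dried, against 5997 in the control. Its ratio to the control was 0.0414 and 0.0580 in the resubmerged and dried libraries of 24 h but 0.403 and 0.423 in those of 36 h, so each resubmerged library lay close to the dried library of its own period.

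The gene c32529_g1 had 95.5, 85.1 and 99.1 FPKM after resubmergence and 148, 119 and 89.5 FPKM when dried, against 446 FPKM in the control. The gene c31821_g1 had 42.6, 151 and 113 FPKM after resubmergence and 72.0, 124 and 75.5 FPKM when dried, against 314 FPKM in the control. The resubmerged levels of c32529_g1 were nearly equal over the periods, while those of c31821_g1 spread more than 3-fold and reached 0.498 of the control at 36 h. The gene c32715_g1 had 4028, 3482 and 1785 counts after resubmergence and 3456, 2441 and 1021 when dried, against 6509 in the control. Its resubmerged CPM was above the dried one in all 3 periods, 1.27, 1.496 and 1.42 times. The genes c32429_g3 and c33550_g1 had 20.4 and 56.6 FPKM in the control and largest ratios to it of 0.357 and 0.339.

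**Figure D2:**
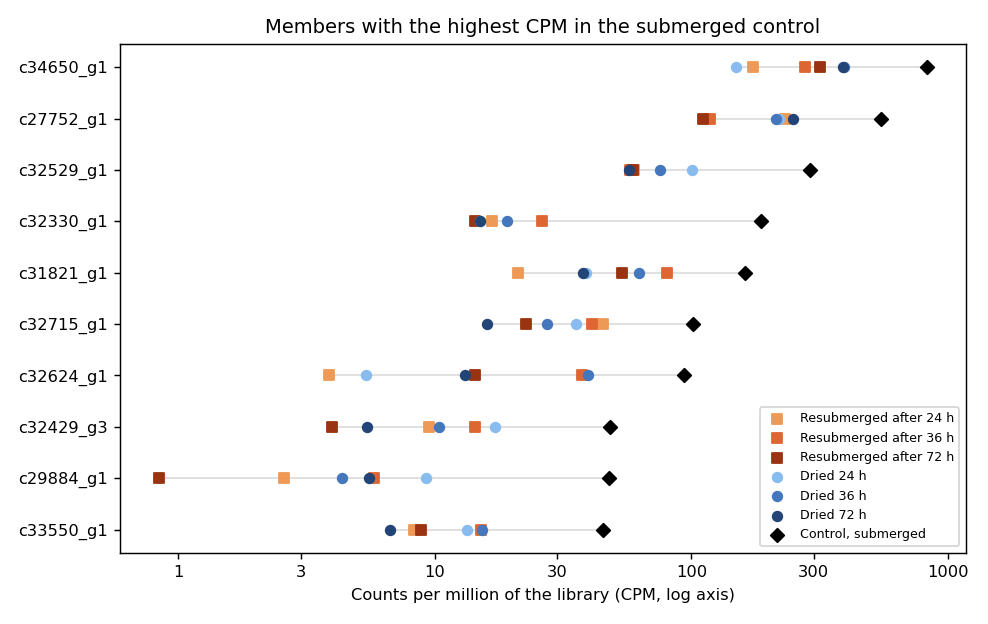
Levels in CPM (log axis) of the 10 members with the highest CPM in the submerged control, 1 row per gene, with squares for resubmerged thalli, circles for dried thalli and a diamond for the control. The control is the highest point in each row by the rule, and the spread among the other 6 libraries is narrow for c32330_g1 and c32529_g1 and wide for c32624_g1 and c29884_g1.

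At the other end were members with almost no reads outside the control. The gene c57407_g1 (649 nt, 62.10% GC) had 0 counts in each resubmerged and each dried library, against 54 in the control. With a floor of 3 counts per library the control was at least 24.96, 23.8 and 21.99-fold higher than the resubmerged libraries and at least 27.2, 24.96 and 17.85-fold higher than the dried ones. The gene c15564_g1 (572 nt, 54.55% GC) had 0 counts in each resubmerged library and 0, 0 and 4 counts when dried for 24, 36 and 72 h, against 164 in the control. Against the same floor the control was at least 75.8, 72.3 and 66.8-fold above the resubmerged libraries. Another gene, c8660_g1, singled out after its values were seen, had 0, 33 and 5 counts after resubmergence and 0, 34 and 7 when dried, against 80 in the control, so it had no reads in either 24 h library and some in the other 5.

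Ratios of 0.2 or less in all 6 libraries were held by 22 members, while 174 eligible genes (1.62%) held such ratios. These 22 differed from the other members in more than level. Their median GC content was 43.9%, against 52.0% for all members and 57.1% for the eligible genes. Under 45% GC were 13 of the 22 and also 88 of the 174 eligible genes, so low GC content was not particular to the members. Their median control count was 71, against 363.5 for all members, so many lay near the minimum of 50. The median length of the 22 was 580 nt, and 20 of the 22 had a single assembled transcript. Of the 22, 17 had under 50% GC.

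Apart from c29884_g1, the other 16 of these low-GC genes shared a profile over the libraries, a set described after its values were seen. Their summed counts were 122, 111 and 12 in thalli resubmerged after 24, 36 and 72 h and 214, 119 and 13 in thalli dried for these periods, against 1526 in the control. The summed CPM was 0.0577 (95% counting interval 0.0475 to 0.0694), 0.0550 (0.0450 to 0.0667) and 0.00644 (0.00332 to 0.0113) of the control after resubmergence. In dried thalli it was 0.0927 (0.0800 to 0.107), 0.0562 (0.0463 to 0.0678) and 0.00859 (0.00456 to 0.0147) of the control. Both 72 h libraries thus stood below the 4 libraries of the shorter periods, and this order held in all 16 genes. It did not hold in c29884_g1, which stood at 0.116 of the control when dried for 72 h and at 0.0906 when dried for 36 h. With c29884_g1 included, the summed CPM of the 17 genes was 0.160, 0.0792 and 0.0804 of the control in dried thalli. The order of the dried sums thus rests on leaving that gene out. Over all members both 72 h libraries were the lowest in 33 (21.7%), and over the eligible genes in 420 (3.92%). Among the 154 eligible genes of 40 to 45% GC, members or not, they were the lowest in 57 (37.0%).

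Single genes of this set show the pattern. The gene c38194_g1 (944 nt, 45.87% GC) had 22, 17 and 2 counts after resubmergence and 25, 17 and 3 when dried, against 215 in the control. The gene c34518_g5 (298 nt, 49.66% GC) had 21, 31 and 3 counts after resubmergence and 32, 22 and 2 when dried, against 265 in the control. In both genes the libraries of 72 h held 2 or 3 reads each. The gene c33367_g3 (445 nt, 40.67% GC) had 8, 8 and 0 counts after resubmergence and 19, 6 and 1 when dried, against 140 in the control. The genes c62899_g1, c50486_g1, c85155_g1, c86132_g1 and c78028_g1 had 52 to 109 counts in the control, 1 to 13 in each 24 and 36 h library and at most 1 in each 72 h library.

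The members' GC content was lower than that of the eligible genes, with overlapping quartiles of 48.8 to 55.6%, against 52.4 to 61.5%, although the rule asked only for 35% or more. Members made up 4.44% of the 45 eligible genes of 35 to 40% GC and 11.04% of the 154 of 40 to 45%. In the next 4 bands of 5 points they made up 3.58%, 1.82%, 1.15% and 0.426%, and none of the 1018 genes of 65% GC or more was a member. The share of genes at 0.5 or less in all 6 libraries was likewise highest in the band of 40 to 45%, at 54.5%, against 4.76% of all eligible genes of 45% GC or more. In that low band all 154 eligible genes, members or not, had median ratios to the control of 0.0888, 0.116 and 0.0324 after resubmergence and 0.115, 0.0688 and 0.0260 when dried. Low levels outside the control were therefore not particular to the members in this band, and what the genes of the band share besides GC content was not tested. The 133 members of 45% GC or more had median ratios of 0.174, 0.297 and 0.279 after resubmergence and 0.309, 0.303 and 0.278 when dried, close to those of all members.

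**Figure D3:**
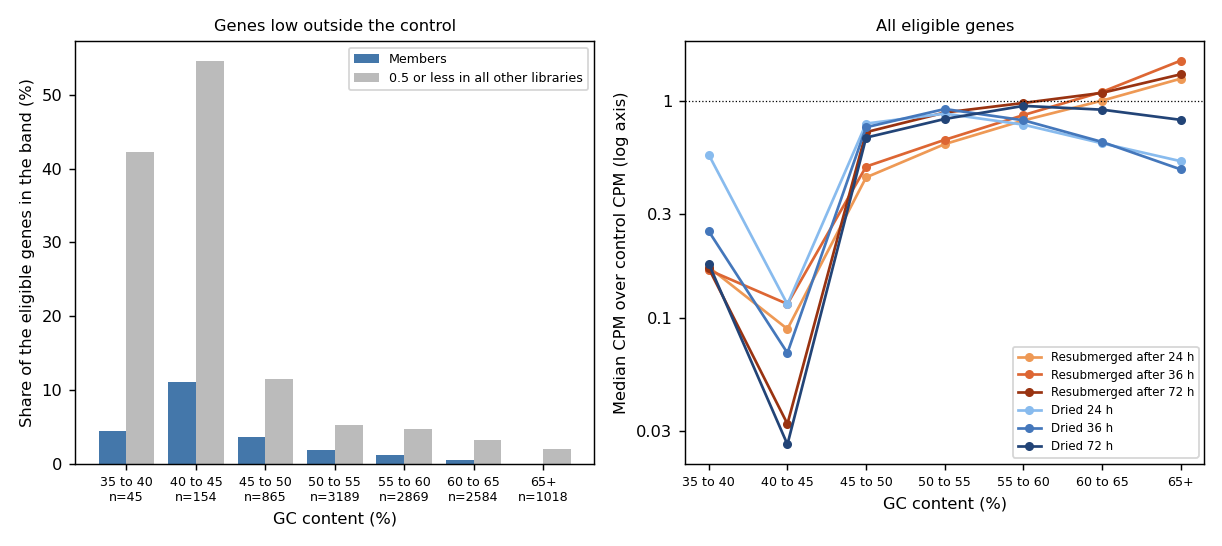
Left, the share of eligible genes in each band of GC content that were members (blue) or stood at 0.5 times the control or less in all 6 other libraries (grey), with the number of eligible genes under each band. Right, the median CPM over the control CPM of all eligible genes in each band and library (log axis), which was lowest in the band of 40 to 45% GC, at 0.0260 in thalli dried for 72 h.

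GC content also moved with the library over genes in general. Spearman's rho between GC content and the log2 ratio to the control over the 10724 eligible genes was 0.29, 0.41 and 0.21 in the resubmerged libraries and -0.13, -0.14 and 0.11 in the dried ones. Over the 152 members it was 0.40, 0.38 and 0.26 after resubmergence and 0.24, 0.30 and 0.21 when dried. Genes of 1 library share its depth and base composition, so these are descriptions across genes that are not independent. The part of GC content in the members' low levels was not tested.

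**Figure D4:**
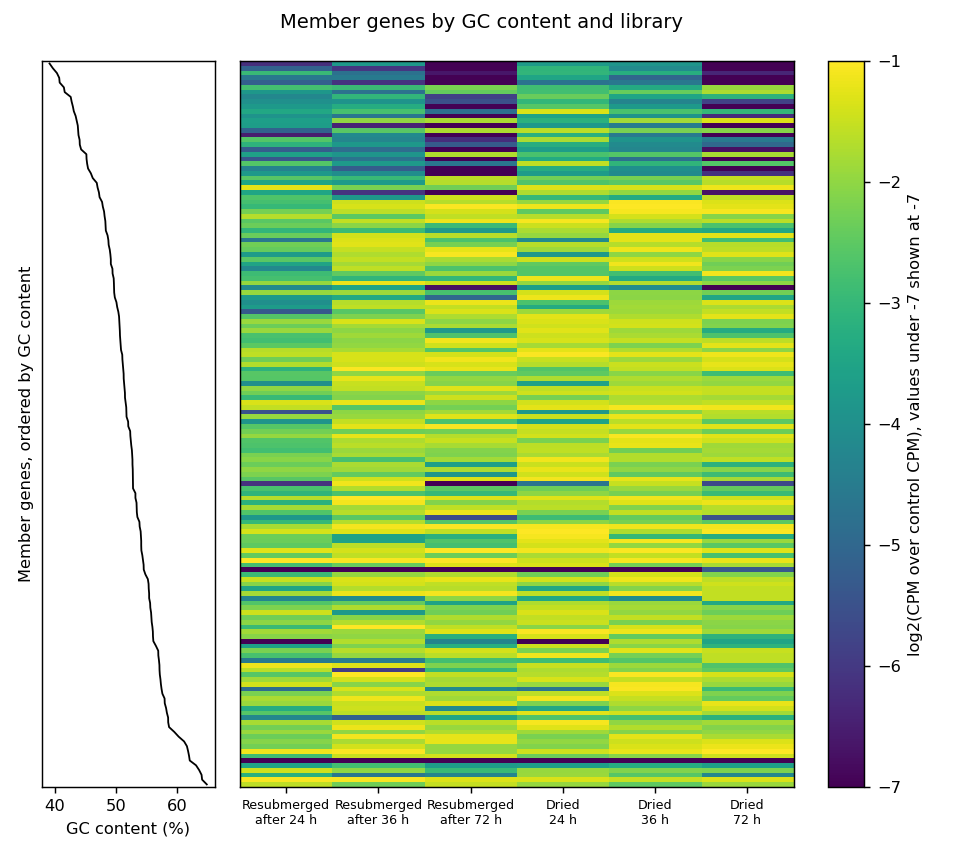
Rows are the 152 members ordered by GC content (left panel, percent), columns the 6 libraries, and colour the log2 of CPM over control CPM. Dark rows (low ratios) gather at the lowest GC content, above all in both 72 h libraries, and the dark rows lower down include c15564_g1 and c57407_g1.

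Within the drying series the members differed in direction. The dried level was lower with each longer period in 51 members (33.6%) and higher with each longer period in 21 (13.8%). Among the eligible genes these orders were held by 19.5% and 26.0%. The library dried for 72 h was the lowest of the 3 in 75 members (49.3%), against 28.8% of the eligible genes. The library dried for 24 h was the highest of the 6 in 54 of the 151 members with a single highest library (35.8%), against 16.4% of the eligible genes. These orders rest on CPM and were not counted under another scaling. The eligible log2 medians of dried thalli rose over the periods, -0.43, -0.40 and -0.24, but fell with trimmed mean scaling, -0.03, -0.16 and -0.29. The members' medians fell under both, -1.76, -1.87 and -1.91 as reported and -1.36, -1.63 and -1.96 with trimmed mean scaling. The gap to the eligible shares can therefore depend on the scaling. The rule also chose the members by these same levels. Its limit on resubmergence, which the eligible genes did not have, favours a dried library as the highest of the 6. Nothing is therefore read from the gap in that share. The part of the choice in the gaps of the dried orders was not tested.

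The second part of the rule concerned the hour after return to water. The resubmerged level was a median of 0.623, 0.966 and 0.942 times the dried level after 24, 36 and 72 h, over 149, 150 and 143 members with reads in the dried library. Over the eligible genes the medians were 1.08, 1.18 and 1.12. The members were capped at 1.5 by the rule, which lowers their medians and lets nothing be read from the gap to the other genes. The counting interval of the resubmerged over the dried level lay wholly under 1.5 in all 3 periods in 59 members. For the other members, counting error alone did not place the ratio within that limit in every period. The 24 h pair gave the lowest median of the members. Eligible genes of similar GC content were low in it too, with medians of 0.563 at 45 to 50% GC and 0.715 at 50 to 55%. Spearman's rho between GC content and the log2 ratio of resubmerged to dried thalli was 0.57, 0.43 and 0.18 over the eligible genes at 24, 36 and 72 h, and the part of GC content in the members' 24 h median was not tested. The counting interval lay wholly under 1 in 89 members at 24 h, 34 at 36 h and 31 at 72 h, and wholly above 1 in 10, 26 and 22. Such intervals were not counted over the eligible genes, and the cap of 1.5 favours intervals under 1, so nothing is read from this balance. A ratio above 1 was held by 21, 72 and 63 members, where the eligible background was 53.8%, 56.3% and 59.3%. A ratio of 0.5 or less was held by 44, 20 and 15 members, where the eligible background was 13.5%, 18.0% and 8.43%. The cap bears on these shares as well, so nothing is read from their gaps to the background.

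The resubmerged level was below the dried one in all 3 periods in 34 members (22.4%), against 18.3% of the eligible genes. It was above the dried one in all 3 periods in 6 members (3.95%), against 30.3% of the eligible genes. With trimmed mean scaling these counts were 56 members below and 2 above, against 23.3% and 25.8% of the eligible genes. The rule's limit on resubmergence, which the eligible genes did not have, lowers the members' share above and raises their share below. This holds under either scaling, so nothing is read from these gaps to the eligible genes. Among members with at least 20 counts in each dried library, the lowest mean log2 ratios belonged to c29521_g3, c16059_g1, c29884_g1 and c33044_g2. The gene c29521_g3 (1818 nt) had 9, 9 and 26 counts after resubmergence and 31, 34 and 50 when dried, against 149 in the control. The gene c16059_g1 (2481 nt) had 41, 17 and 29 counts after resubmergence and 96, 99 and 40 when dried, against 150 in the control. In both genes every resubmerged library was below the dried library of its period, with ratios of 0.317, 0.278 and 0.422 and of 0.466, 0.180 and 0.588. The gene c33044_g2 had 3, 19 and 41 counts after resubmergence and 35, 32 and 29 when dried, against 85 in the control, so the low mean rests on the 24 h pair.

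The highest mean log2 ratios belonged to c34082_g1, c18811_g1, c29149_g1 and c32715_g1. The gene c18811_g1 (2478 nt, 64.89% GC), the member of highest GC content, had 335, 196 and 312 counts after resubmergence and 286, 181 and 194 when dried, against 732 in the control. The gene c34082_g1 (1441 nt, 64.12% GC) had 317, 303 and 234 counts after resubmergence and 286, 231 and 188 when dried, against 478 in the control. The gene c29149_g1 had 98, 159 and 119 counts after resubmergence and 106, 117 and 66 when dried, against 272 in the control. The resubmerged libraries of these 3 genes stood at 0.203 to 0.479 of the control. Their ratios to the dried library lay between 1.01 and 1.46, but that of c29149_g1 at 24 h (1.01, 95% counting interval 0.758 to 1.34) and that of c34082_g1 at 72 h (1.01, 0.830 to 1.23) became 0.904 and 0.948 with trimmed mean scaling.

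**Figure D5:**
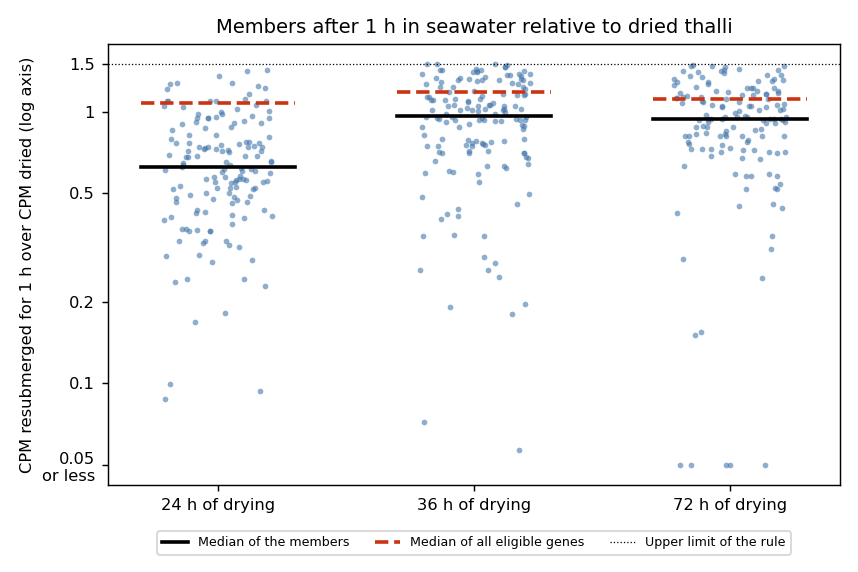
Each point is 1 member with reads in the dried library, placed by its CPM after 1 h of resubmergence over its CPM in thalli dried for the same period (log axis). Solid bars are the members' medians, 0.623, 0.966 and 0.942, dashed bars the medians of all eligible genes, and the dotted line the upper limit of 1.5 that the rule set.

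The members' transcripts were shorter and had fewer assembled forms than those of the eligible genes. The median length was 1231.5 nt, against 2202 nt, and 64 members (42.1%) had 1 transcript, against 23.4% of the eligible genes. The median control level was 11.9 FPKM, against 8.78 FPKM. The 452 genes that were low in all 6 libraries but exceeded the resubmergence limit had a median length of 966.5 nt and a median GC content of 53.8%, both also below those of the eligible genes.

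Where a member's gene had other transcripts, most were low too, although transcripts of 1 gene share reads. Of 292 other transcripts with at least 50 counts in the control, from 83 genes, 229 were at 0.5 times the control or less in all 6 libraries and 278 were below the control in all 6. The other 14 came from 5 genes. A gene among these 5, singled out after its values were seen, was c29884_g1, whose representative transcript c29884_g1_i2 (625 nt, 42.56% GC) had 230, 494 and 66 counts after resubmergence and 900, 387 and 354 when dried, against 3079 in the control. Its transcript c29884_g1_i3 (578 nt, 44.64% GC) had 124, 218 and 26 counts after resubmergence and 698, 324 and 355 when dried, against 125 in the control. In dried thalli both forms thus had similar counts, but i3 was 3.69, 1.87 and 2.86 times the control. After resubmergence i3 stood at 0.715, 1.32 and 0.170 times the control, so it was below the control, as i2 was, in the libraries resubmerged after 24 and 72 h. In the gene c34625_g4, named after its values were seen, the representative transcript was low as well, while c34625_g4_i14 stood at 4.55, 2.88 and 1.19 times the control after resubmergence and 2.44, 1.28 and 2.07 times when dried.

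The identifiers group assembled genes into components, which share sequence in the assembly. The 152 members lay in 148 components, and 4 components held a pair of members. The pair c33496_g1 and c33496_g4 had ratios to the control of 0.261 and 0.320, 0.271 and 0.289, and 0.149 and 0.163 after resubmergence from 24, 36 and 72 h, and of 0.383 and 0.423, 0.247 and 0.303, and 0.205 and 0.242 when dried. The pair c29521_g2 and c29521_g3 stood at 0.341 and 0.338 of the control when dried for 72 h, above their levels in every other library. In the pair c34667_g2 and c34667_g3 the 24 h dried library was the highest of the 6, at 0.296 and 0.390. In these 3 pairs the same library was the highest of the 6 for both genes. The pair c33044_g1 and c33044_g2 parted in the library resubmerged after 24 h, at 0.268 and 0.0255. Shared sequence can give a pair the same reads, and its part in these likenesses was not tested. The other 88 eligible genes of the members' components were at 0.5 or less in all 6 libraries in 17.0%, against 5.63% of all eligible genes.

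In the authors' deposited table for 24 h of drying, c15564_g1 was the 1 member called lower than the control, with an adjusted p of 0.0484, where 0.83% of the eligible genes were called lower. The authors' deposited tables for 36 and 72 h called 0 members lower, with backgrounds of 0.532% and 0.308%. At an unadjusted p under 0.05 the authors' deposited tables held 16, 15 and 20 members lower after 24, 36 and 72 h of drying, against 5.88%, 5.33% and 2.73% of the eligible genes. For resubmergence against dried thalli the authors' deposited tables called 0 members in either direction in any period, where 0.0841%, 0.00933% and 0.617% of the eligible genes were called lower, and held 1, 0 and 1 members lower at an unadjusted p under 0.05, against 1.60%, 1.20% and 2.54% of the eligible genes. These p-values compare 1 library with 1 and come from the same counts that chose the members. Larger shares lower than the control among members than among eligible genes therefore follow from the choice and lend it no support.

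The limit of 0.5 cut through a continuous range. The 4 members just inside it, c34002_g2, c31821_g1, c28759_g1 and c33602_g6, had largest ratios of 0.497, 0.498, 0.4999 and 0.49998. The 4 genes just outside it that met the resubmergence limit, c25318_g1, c30419_g2, c70512_g1 and c26011_g1, had 0.501, 0.503, 0.503 and 0.503. Scaling moved genes across this line. With trimmed mean scaling 125 genes met the rule, 99 of them among the 152, and with DESeq2's size factors 139 genes, 112 of them among the 152.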

How the data were processed

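RNA of 7 Ulva lactuca libraries was sequenced, 1 per condition. Cutadapt, Bowtie2 and DESeq are named in the submitters' processing notes. The assembler and the counting program are not named in the labels or file headers. Read counts and FPKM values per assembled transcript, with length and GC percent, were deposited by the authors and used as deposited, per the file headers. The authors' comparison tables give the fold (a ratio), p-value and adjusted p-value of 1 library against 1, per the file headers. All 275188 counts repeated in each such table were equal to the counts used here.

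CPM is the count over the column sum. No test was run, since no condition has a replicate and the rule used every library. Ratios of named genes have exact (Clopper-Pearson) 95% intervals from both counts. Reads are not independent molecules, so these intervals and the floor of 3 counts (0.0308 to 0.0470 CPM) cover counting error only. Medians on the log2 scale used a pseudocount of 0.5 counts. Alternative scalings used edgeR 4.0.16 (TMM) and DESeq2 1.42.0 (size factors) in R 4.3.3 on 66046 transcripts with a mean count of 10 or more. Python 3.11.15 with pandas 2.3.3 and SciPy 1.17.1 did the rest. The selection code was also run on simulated counts with set folds, which checks the code and not the choice of members in these data.

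Members and lists were chosen with earlier results of these data known. Named are the 10 members of highest control CPM, the 10 with the lowest largest ratio to the control, 4 genes on each side of the limit, the 4 lowest and 4 highest mean resubmerged to dried ratios among members with at least 20 counts in each dried library, and up to 6 members sharing a component. Genes named outside this rule are said to be so. The limit of 200 members in the rule was not reached.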

Additional observations from a re-analysis of the deposited data

Results flagged for a closer look

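For 9 named members the resubmerged level was below the dried one in 1 period and above it in another, each with a 95% counting interval on its own side of 1. The difference between periods was not tested, since each period has 1 library of each kind. The gene c34650_g1 had resubmerged over dried ratios of 1.17 at 24 h, 0.703 at 36 h and 0.817 at 72 h. The gene c27752_g1 had ratios of 1.05, 0.553 and 0.449, and its ratio at 24 h became 0.945 with trimmed mean scaling and 0.975 with DESeq2's size factors, so its direction there depends on the scaling. The gene c33044_g1 had 1.22, 1.16 and 0.916 at 24, 36 and 72 h.

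The opposite order was found for c31821_g1, with 0.544 at 24 h, 1.29 at 36 h and 1.42 at 72 h, and for c33550_g1, with 0.621 at 24 h and 1.32 at 72 h. The period of 36 h stood apart in c32429_g3, with 0.553, 1.37 and 0.728 at 24, 36 and 72 h, in c29884_g1, with 0.279, 1.34 and 0.151, and in c34667_g2, with 0.411, 1.31 and 0.760. For c28759_g1 the ratio was 0.781 at 36 h and 1.22 at 72 h. Apart from c27752_g1 at 24 h, each of these ratios stayed on its side of 1 under both other scalings.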

How the results depend on the processing

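No paired analysis was possible because each condition has 1 library and no result comes from a test. The number of members was 152 and ranged from 125 to 211 with the other scalings, the deposited FPKM, summed counts, the longest transcript, no GC limit, 45% GC or more only (an alternative chosen after seeing the data) and a control minimum of 20 counts. It became 99 with a control minimum of 200 and 1151 with a minimum of 1, 24 and 82 with ratios of 0.25 and 0.4 or less, 39 and 248 with resubmerged levels of at most 1 and 2 times the dried, and 258, 475 and 308 without the 24, 36 and 72 h pair. With trimmed mean scaling the members' median log2 ratio of resubmerged to dried thalli was -0.81 at 24 h and -0.20 at 36 h, where it was -0.65 and -0.03 as reported. With DESeq2's size factors it was -0.17 at 36 h and -0.28 at 72 h (-0.10 as reported), and with FPKM -0.11 at 36 h and 0.00 at 72 h. Median log2 ratios to the control moved with trimmed mean scaling to -2.35 (resubmerged after 24 h, -2.59 as reported), -1.36 (dried for 24 h, -1.76 as reported) and -1.63 (dried for 36 h, -1.87 as reported). DESeq2's size factors gave -2.38 for thalli resubmerged after 24 h and -1.43 for those dried for 24 h. A change of scaling multiplies every gene of a library by the same factor, which is the cause of these shifts. An alternative median is given above where it left the 95% order-statistic interval of the median over the members. That interval describes the spread across genes of the same libraries, which are not replicates, and not the variation between thalli. Summed counts and a pseudocount of 2 moved no median beyond it. The directions of resubmerged to dried sums and single genes under other scalings, given with the results, were added after seeing the data. Counts under 10 limit the precision of 12 to 29 members per library.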
